A study of Mus musculus with 12 samples.

Results

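The beta-1,4-galactosyltransferases are Golgi enzymes that add galactose to the growing sugar chains of glycoproteins and glycolipids. The 4 family members on a mouse glycosylation PCR plate, B4galt1, B4galt2, B4galt3 and B4galt5, were chosen by family name among its 84 panel genes. Quantitative real-time PCR gave their messenger RNA levels in 4 groups of mouse dendritic cells, each deposited as 3 files. DC2.4, an immortalized dendritic cell line, was left unstimulated or was stimulated with TGF-beta for 4 days, at 2.5 ng/ml by the design text and at 10 ng/ml by the treatment protocol. Type 1 dendritic cells (DC1) were sorted from spleen and from subcutaneous tumors of MCA101, a transplanted fibrosarcoma line. By the labels the splenic cells were XCR-1-positive and the tumor cells CD103-positive, while the protocol names a CD103 or CD8 gate, so source tissue and sorted surface marker cannot be told apart. No genetic change is named for any group, and the mouse strain, age and number of animals are not given in the sources used here. Of the DC1, macrophage, fibroblast and lymphocyte markers looked for, 0 were on the panel, so the labelled cell types could not be checked.

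Galactose in beta-1,4 linkage to N-acetylglucosamine makes N-acetyllactosamine, the unit on which sialic acid, fucose and polylactosamine chains are built. B4galt1 is the main enzyme of this step on N-glycans and, with alpha-lactalbumin, makes lactose in the mammary gland. B4galt2 and B4galt3 catalyse the same linkage, and B4galt5 is best known for making lactosylceramide, the precursor of most complex glycosphingolipids. Dendritic cells carry these glycans on their surface, where lectins such as galectins bind them.

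The files limited what could be compared. The third file of each group equalled a constant times the mean threshold cycle of the other 2 files in 310 of 336 wells, within 0.002 cycles. The measured samples were therefore 2 per group and 8 in all, and p-values describe the spread between these samples, which no label ties to separate cultures or animals. The threshold cycle (Ct) counts the PCR cycles needed for the dye signal to cross a fixed threshold, and it is lower where more template was present. Between 64 and 76 of the 84 panel genes had a Ct under 35 in a sample, and the median Ct of those genes ran from 22.8 to 30.8. In the second tumor file every value stood 1 well early. The deposited matrix kept that file unmoved, which put B4galt1 at -21.40 cycles relative to Actb in place of 8.52. In RNA from whole samples, fewer cells that carry a transcript and less of it per cell cannot be told apart.

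The promoters of B4galt1 and B4galt5 are shown beside that of B4galt3. Against the average of 5 reference wells, group means of B4galt1 and B4galt5 lay in the same order over the 4 groups. Those of B4galt3 did not. The promoters were picked with these values known. Each is the 250 bases upstream of the annotated start in RefSeq's GRCm38.p6 table, 5′ to 3′ on the gene's strand. Capitals mark GC boxes, the letters GGGCGG or CCGCCC, and all 4 members were matched in the table by symbol.
B4galt1: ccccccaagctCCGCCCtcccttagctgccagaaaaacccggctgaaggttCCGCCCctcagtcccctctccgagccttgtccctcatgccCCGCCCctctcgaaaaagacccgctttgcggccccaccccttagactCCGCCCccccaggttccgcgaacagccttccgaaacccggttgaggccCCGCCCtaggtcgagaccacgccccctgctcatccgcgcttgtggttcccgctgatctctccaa
B4galt3: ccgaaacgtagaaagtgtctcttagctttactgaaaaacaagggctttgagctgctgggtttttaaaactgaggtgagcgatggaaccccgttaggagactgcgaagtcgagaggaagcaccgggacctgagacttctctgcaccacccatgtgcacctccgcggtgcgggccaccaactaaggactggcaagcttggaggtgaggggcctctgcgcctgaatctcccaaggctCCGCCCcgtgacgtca
B4galt5: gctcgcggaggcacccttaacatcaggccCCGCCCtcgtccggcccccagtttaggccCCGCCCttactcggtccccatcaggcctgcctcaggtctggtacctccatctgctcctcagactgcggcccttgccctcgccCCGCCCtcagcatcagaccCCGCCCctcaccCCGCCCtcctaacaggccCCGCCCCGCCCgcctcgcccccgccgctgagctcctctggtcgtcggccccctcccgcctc
The B4galt1 window is chr4:40853985-40854234 on the minus strand, that of B4galt3 is chr1:171270078-171270327 on the plus strand, and that of B4galt5 is chr2:167349179-167349428 on the minus strand. GC boxes on either strand, overlapping matches included, numbered 5 in B4galt1, 1 in B4galt3 and 7 in B4galt5. The B4galt2 window, chr4:117883477-117883726 on the minus strand, held 2. Of 32851 promoters of the same length, 32.74% held at least 1 GC box, 1.93% held at least 5 and 0.41% held at least 7. The Smad-type letters CAGACA and GTCTAGAC, found in 17.13% and 0.17% of promoters, and CCAAT, found in 33.85%, had 0 matches in the 4 windows. Shorter parts of these runs were not counted, so 0 matches does not mean that no Smad-type letters are present. A match is a run of letters and does not show that a factor binds there.

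Levels are given as the gene's Ct subtracted from the average of 5 reference wells, a log2 scale on which 1 unit is a doubling. B4galt1 stood at -3.60 and -3.85 in unstimulated DC2.4 cells and at -0.56 and -0.34 after TGF-beta. It stood at -2.29 and -3.44 in splenic DC1 and at -5.76 and -5.22 in tumor DC1. Both TGF-beta samples were above, and both tumor samples below, every other sample. B4galt1 was among the most abundant readings of the plate in the line, where its Ct ranked 3 and 4 of 84 from the earliest in unstimulated cells and 2 and 1 after TGF-beta. In the tumor samples it ranked 26 and 15.

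B4galt5, the lactosylceramide synthase, stood at -4.35 and -4.77 in unstimulated cells and at -0.21 and -2.24 after TGF-beta. It stood at -2.95 and -2.96 in splenic DC1 and at -6.25 and -6.22 in tumor DC1. The order of group means was that of B4galt1, with TGF-beta highest, then splenic, unstimulated and tumor as labelled. With Actb as the only reference, B4galt1 in splenic DC1 stood at -4.26 and -5.90 and overlapped unstimulated cells, at -5.03 and -4.75. Splenic DC1 then differed from unstimulated cells by -0.19 for B4galt1 and by 0.56 for B4galt5. The authors' deposited fold table has the DC1 groups the other way round, as described with the tumor comparison, and with the DC1 labels exchanged the splenic and tumor places in this order change over for both genes. The TGF-beta samples lay 2.02 units apart, the widest replicate gap of this gene. The Ct of B4galt5 ranked 1 and 4 of 84 after TGF-beta and 32 and 30 in tumor DC1.

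B4galt3 stood at -5.39 and -5.29 in unstimulated cells and at -5.28 and -5.28 after TGF-beta. It stood at -5.73 and -7.98 in splenic DC1 and at -6.33 and -6.53 in tumor DC1. The groups of the line lay within 0.11 units of each other, and the tumor values fell between the splenic ones. Its rank ran from 24 to 56 of 84 over the 8 samples.

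B4galt2, a second N-glycan galactosyltransferase, was the weakest reading of the family in 5 of the 6 samples that gave a value, with Ct from 27.2 to 33.7 in those 6. It stood at -12.24 and -14.29 in unstimulated cells, at -11.58 and -10.24 after TGF-beta and at -8.40 and -5.22 in splenic DC1. The wells of both measured tumor samples were blank, which with a Ct of 35 puts its level there at no more than -11.10 and -12.55. The third tumor file nevertheless lists a Ct of 34.98, so this gene was left out of the fits that hold DC1. With the blanks at 35, the log2 ratio of B4galt2 to B4galt3 differed by -5.44 between tumor and splenic DC1 as labelled, an upper bound since the tumor values are bounds (pairs from -8.79 to -2.09, exact permutation p = 0.3333, the smallest possible). The second splenic sample read B4galt2 at an earlier Ct than the first by 1.18 cycles. Of 66 panel genes with a Ct under 35 in both splenic samples, 3 moved that way, and the median gene was 3.26 cycles later.

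**Figure D1:**
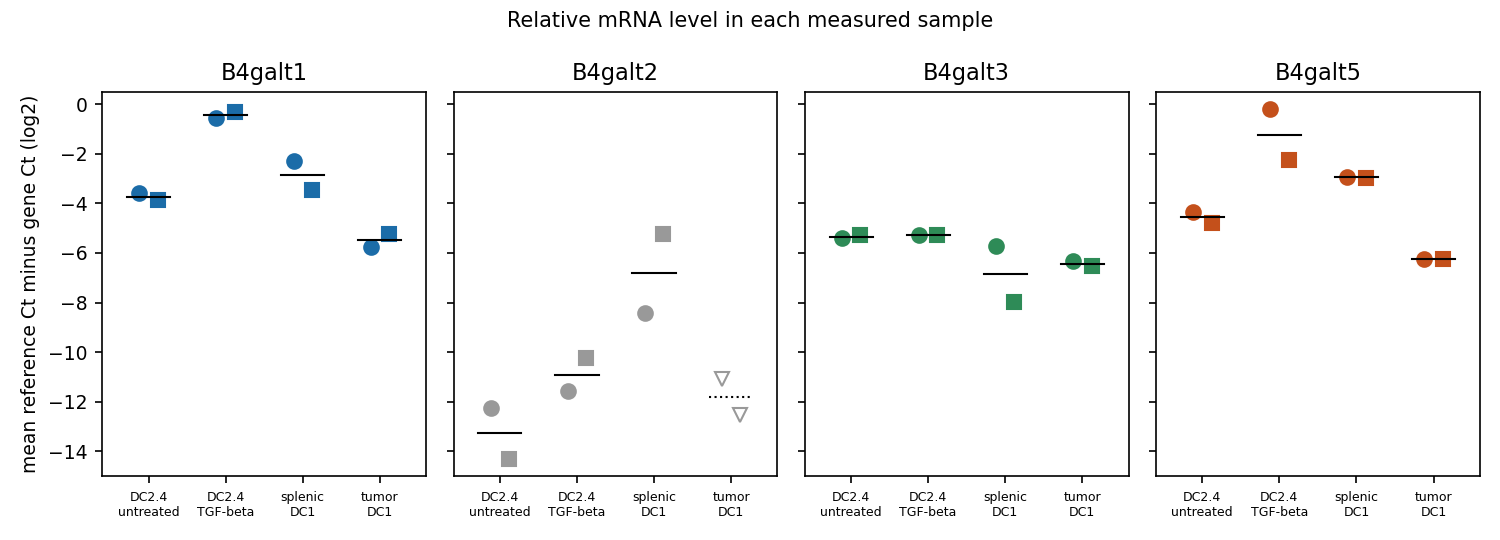
Relative log2 level (mean reference Ct minus gene Ct) of each member in the 8 measured samples. Circles are replicate 1, squares replicate 2 and lines group means of 2, open triangles are upper bounds for blank B4galt2 wells in tumor DC1 (dotted line, their mean), and untreated means unstimulated. B4galt1 and B4galt5 are highest after TGF-beta and lowest in tumor DC1, and B4galt3 stays between -7.98 and -5.28.

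Shares within the family were computed from 2 to the power of minus Ct, which assumes that the assays amplify alike, so they describe composition and carry no test. In unstimulated cells B4galt1 made up 53.0% and 52.8% of the 4 transcripts, B4galt5 31.5% and 27.8%, and B4galt3 15.3% and 19.4%. After TGF-beta the B4galt3 share was 1.64% and 2.50%. In splenic DC1 it was 5.30% and 1.58%, and in tumor DC1 27.9% and 21.2%. B4galt3 thus held at most 5.30% of the family in the TGF-beta and splenic samples and at least 15.3% in the unstimulated and tumor samples, as labelled. With the DC1 labels exchanged, the low shares would be those of the TGF-beta and tumor samples.

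B4galt1 and B4galt5 exchanged the leading place between replicates. B4galt1 held 43.2% and 76.9% after TGF-beta, 57.5% and 36.6% in splenic DC1 and 41.5% and 52.3% in tumor DC1. B4galt5 held 55.1% and 20.6%, 36.4% and 51.1%, and 29.6% and 26.2% in the same samples. It led in the first TGF-beta and the second splenic sample, and B4galt1 led in the other 6. B4galt2 held between 0.0209% and 0.133% in the line and 0.829% and 10.7% in splenic DC1, and no more than 1.03% and 0.326% in tumor DC1.

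**Figure D2:**
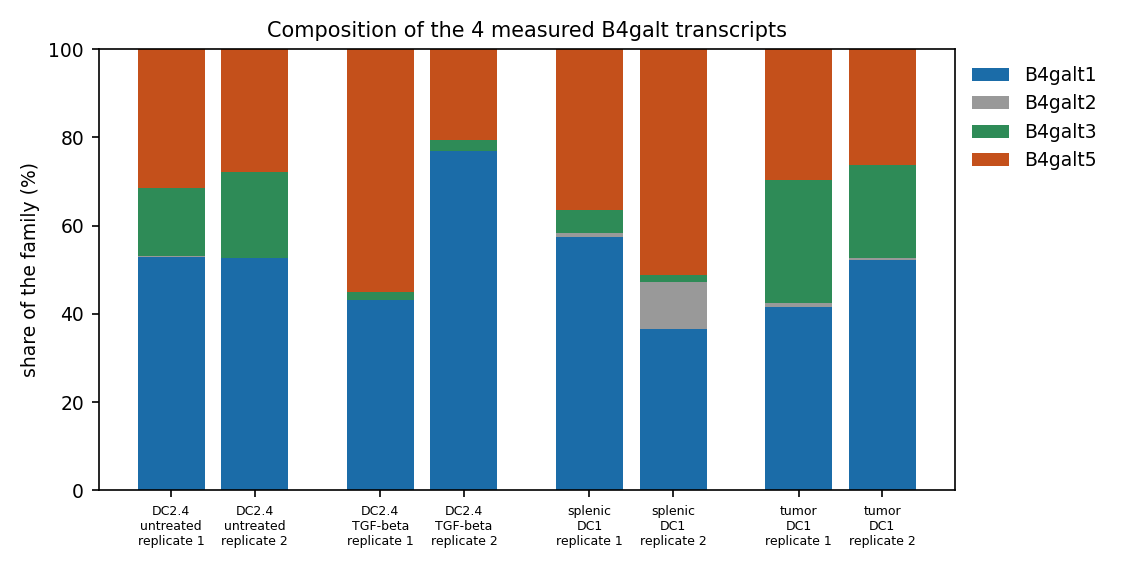
Share of each member in the summed B4galt signal (percent, from 2 to the power of minus Ct) in the 8 measured samples, with blank B4galt2 wells of tumor DC1 drawn at their upper bound. The B4galt3 segment is 15.3% to 27.9% in unstimulated and tumor samples and 1.58% to 5.30% in TGF-beta and splenic samples.

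A ratio between wells of one plate needs no reference gene. The log2 ratio of B4galt1 to B4galt3 was 1.79 and 1.44 in unstimulated cells, 4.72 and 4.94 after TGF-beta, 3.44 and 4.54 in splenic DC1 and 0.57 and 1.30 in tumor DC1. The TGF-beta samples were above the unstimulated ones by 3.22 on average, a 9.29-fold difference, with the 4 pairs between 2.93 and 3.5. Tumor samples differed from splenic ones by -3.05, an 8.29-fold lower ratio, with pairs from -3.96 to -2.14. Each difference had an exact two-sided permutation p of 0.3333, the smallest that 2 samples against 2 allow.

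The log2 ratio of B4galt5 to B4galt3 was 1.04 and 0.52 in unstimulated cells, 5.07 and 3.04 after TGF-beta, 2.78 and 5.02 in splenic DC1 and 0.09 and 0.30 in tumor DC1. It was 9.70-fold higher after TGF-beta and 13.04-fold lower in tumor than in splenic DC1, and neither pair of groups overlapped. The exact permutation p was again 0.3333 for both. The ratio of B4galt1 to B4galt5 showed no such separation. Its group means differed by -0.06 between TGF-beta and unstimulated cells (exact permutation p = 1.0) and by 0.65 between tumor and splenic DC1 (exact permutation p = 0.6667), with single samples from -0.48 to 1.902.

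**Figure D3:**
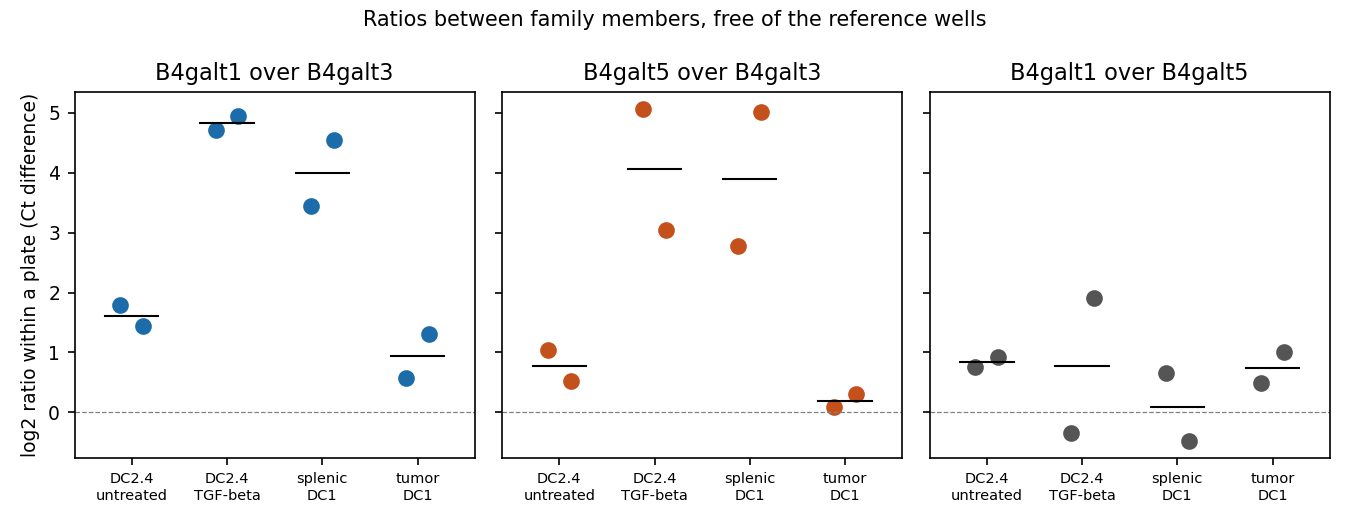
Log2 ratios between members on the same plate (Ct differences) in the 8 measured samples, with lines at the group means of 2. B4galt1 and B4galt5 each exceed B4galt3 by 2.78 to 5.07 in TGF-beta and splenic samples and by 0.09 to 1.79 in unstimulated and tumor samples.

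The first comparison asks which glycosylation genes TGF-beta changes in the line. B4galt1 was 9.67-fold higher after TGF-beta, a log2 difference of 3.27 ± 0.42 (SE, n = 2 per group, 95% interval 2.09 to 4.45). Its adjusted p was 0.053 (limma, Benjamini-Hochberg over 69 genes), outside the threshold of 0.05 and shared with Galnt3, Galnt6, Mgat4a and Mgat5. B4galt5 was 10.1-fold higher, with a log2 difference of 3.34 ± 0.85 (interval 0.92 to 5.75, limma adjusted p = 0.161). B4galt2 stood 5.13-fold higher at 2.36 ± 0.98 (interval -0.41 to 5.13, limma adjusted p = 0.378), and ran from 1.33 to 3.38 when 1 sample was left out. B4galt3 differed by 0.06 ± 0.40 (interval -1.08 to 1.19, limma adjusted p = 0.953).

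No member passed the threshold, and 0 of the 69 tested genes did (percent called 0%), although 11 (15.9%) had an unadjusted p under 0.05, B4galt1 and B4galt5 among them. In all 4 members both TGF-beta samples lay above both unstimulated ones, which 20 of 69 genes (29%) did. For B4galt3 that gap was smaller than 0.01 units. The median difference of the 4 members was 2.82, beside 0.29 over all 69 genes. With the second TGF-beta sample left out, B4galt1 and B4galt5 stood at 3.16 and 4.35, and the spread then rested on the unstimulated pair. Without the first TGF-beta sample they stood at 3.39 and 2.32. In the authors' deposited table, TGF-beta over unstimulated was 8.20, 5.14 and 9.81 for B4galt1, 17.59, 11.03 and 11.7 for B4galt5, 1.59, 0.99 and 9.095 for B4galt2, and 1.08, 0.67 and 1.05 for B4galt3. The first column was 1.595 times the second in the median gene and within 2% of that in 78 of 83 genes, so these columns are not separate replicates.

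The second comparison sets tumor against splenic DC1. By the sample labels, B4galt5 was lower in tumor DC1 by 9.71-fold, a log2 difference of -3.28 ± 0.60 (SE, n = 2 per group, interval -4.71 to -1.85, limma adjusted p = 0.0195 over 62 genes). The authors' deposited table runs the other way: its tumor over splenic folds are 7.57, 8.15 and 7.91 for B4galt5 and 4.52, 4.39 and 4.80 for B4galt1. The direction of every DC1 difference is therefore unsettled, and signs here follow the sample labels. B4galt1 differed by -2.63 ± 0.69 (6.17-fold, interval -4.27 to -0.98, limma adjusted p = 0.062). B4galt3 differed by 0.43 ± 0.86 (interval -1.61 to 2.46, limma adjusted p = 0.875), and its groups overlapped.

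Of the 62 genes, 5 passed (8.06%), all lower in tumor DC1, and B4galt5 was 1 of them. Both B4galt1 and B4galt5 had every tumor sample below every splenic one, as 26 genes (41.9%) did. The B4galt5 call ended when either tumor sample was left out (-3.27 and -3.29). Without the first and the second splenic sample, B4galt1 stood at -2.05 and -3.20. In these fits 1 group has a lone sample, assumed to vary like the other group's pair. The deposited table lists B4galt3 at 0.588, 0.604 and 0.564 and B4galt2 at 1.93, 0.446 and 0.394. From that table the fold of B4galt1 over that of B4galt3 was 7.69, 7.27 and 8.52, and that of B4galt5 over B4galt3 12.9, 13.5 and 14.0. These ratios are close in size to those from the Ct values, 8.29 and 13.04, and opposite in direction.

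**Figure D4:**
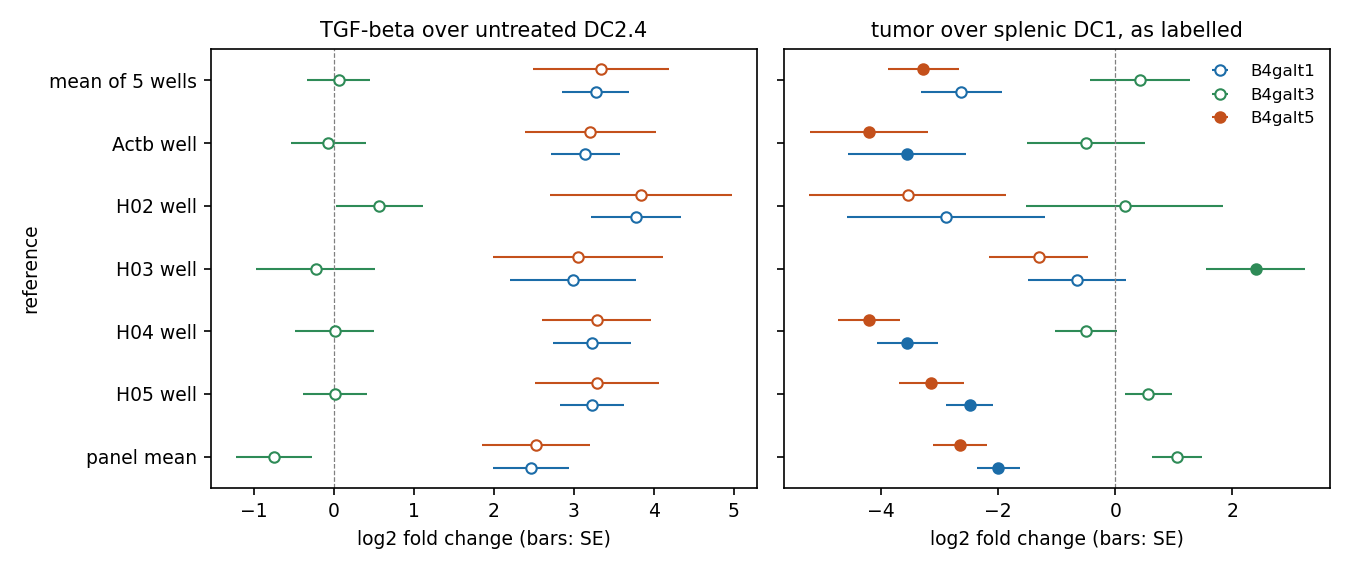
Log2 fold change (points) and SE (bars) of B4galt1, B4galt3 and B4galt5 under each choice of reference, for TGF-beta over untreated DC2.4 (left) and tumor over splenic DC1 as labelled (right). Filled points have a limma adjusted p under 0.05. B4galt1 and B4galt5 keep their sign under every reference shown, and B4galt3 lies on both sides of 0.

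The choice of reference moved the values more in DC1 than in the line. The files name only the Actb reference well, and the others are called by plate position, H02 to H05. Over 6 other references, the TGF-beta difference ran from 2.47 to 3.78 for B4galt1 and from 2.53 to 3.84 for B4galt5. The DC1 difference ran from -3.55 to -0.65 for B4galt1 and from -4.20 to -1.31 for B4galt5, and each passed under 4 of the 6. Those 4 were Actb, H04, H05 and the panel mean, under which 11, 38, 15 and 20 of the 62 genes passed. B4galt3 ran from -0.75 to 0.57 and from -0.50 to 2.397, so it has no settled direction. The 2.397, with well H03 as reference, passed the threshold (limma adjusted p = 0.0246), the only one of the 6 references under which B4galt3 did so in DC1. With H03, 16 of the 62 genes passed. The median of all tested genes moved with the reference too, from -0.52 to 0.80 in the line and from -1.32 to 1.58 in DC1. The reference wells of one sample spanned 3.97 to 6.18 cycles.

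The difference between both effects was tested in one fit of the 8 samples, which takes a common spread for the line and the sorted cells. Standard deviations of B4galt1 were 0.18 and 0.16 in unstimulated and TGF-beta cells and 0.82 and 0.38 in splenic and tumor DC1. Those of B4galt5 were 0.30, 1.43, 0.011 and 0.017 in the same order. The tumor effect minus the TGF-beta effect was -5.90 ± 0.87 for B4galt1 (interval -7.82 to -3.98) and -6.62 ± 1.0 for B4galt5 (interval -8.81 to -4.42), each with a limma adjusted p of 0.00063. For B4galt3 it was 0.37 ± 1.03 (interval -1.92 to 2.65, limma adjusted p = 0.866). Of 62 genes, 11 passed (17.7%), 10 of them lower (16.1%), with B4galt1 and B4galt5 among the 10. Both passed under 6 of 6 other references, under which 10 to 19 of the 62 genes passed. In fits that left out 1 sample, B4galt1 ran from -6.48 to -5.32 and B4galt5 from -7.63 to -5.60. Over the references the difference ran from -6.78 to -3.64 for B4galt1 and from -7.49 to -4.36 for B4galt5, smallest with well H03. With the DC1 labels exchanged, as the deposited table would have them, the differences were -0.65 ± 0.87 (interval -2.56 to 1.27, limma adjusted p = 0.892) for B4galt1 and -0.057 ± 1.0 (interval -2.25 to 2.14, limma adjusted p = 0.991) for B4galt5, and 0 genes passed, with 1 at an unadjusted p under 0.05. The answer thus depends on which DC1 labels are right. As labelled, the tumor and TGF-beta effects differed for B4galt1 and B4galt5. With the labels exchanged no difference was called, but with 2 samples per group these intervals do not show that the effects were alike.

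**Figure D5:**
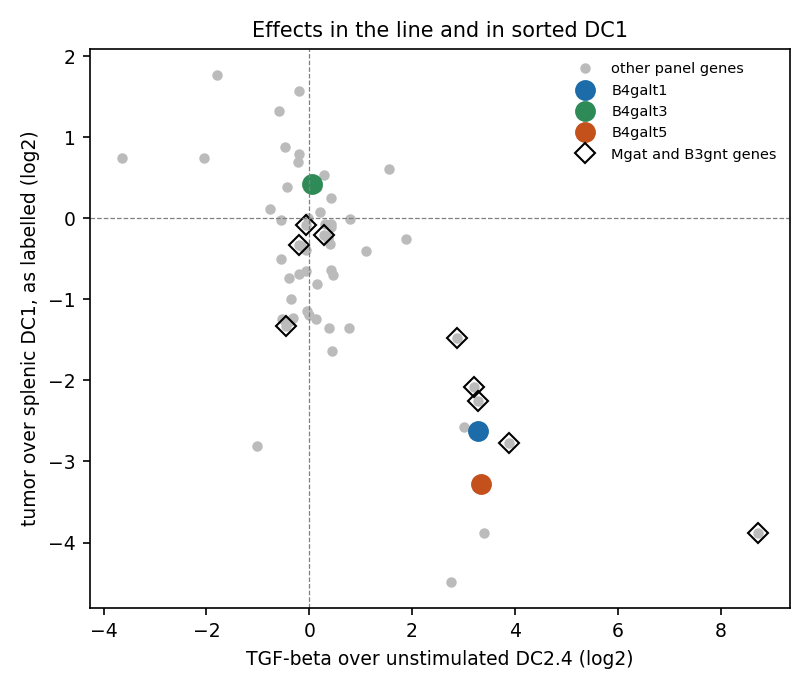
Log2 difference of TGF-beta over untreated DC2.4 (x) against tumor over splenic DC1 as labelled (y) for 61 genes tested in both, with B4galt1, B4galt3 and B4galt5 in colour and 9 Mgat and B3gnt genes as diamonds. B4galt1 and B4galt5 lie at lower right, at 3.27 and -2.63 and at 3.34 and -3.28, and B4galt3 lies near the origin.

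The remaining contrasts set the line against sorted cells, so origin, culture and sorting cannot be told apart in them, and they use samples of the comparisons above. Splenic DC1 differed from unstimulated cells by 0.86 ± 0.61 for B4galt1 (limma adjusted p = 0.417), 1.61 ± 0.70 for B4galt5 (limma adjusted p = 0.177) and -1.52 ± 0.73 for B4galt3 (limma adjusted p = 0.207). None of these 3 passed, while 8 of 62 genes did (12.9%). B4galt3 passed at -1.79 with the panel mean as reference (limma adjusted p = 0.033), where 14 of 62 genes passed. It stood at -2.64 without the first splenic sample and at -0.39 without the second. B4galt1 passed at 1.30 with well H05 as reference (limma adjusted p = 0.0365), where 16 of 62 genes passed. Tumor DC1 lay below TGF-beta cells by -5.04 ± 0.61 for B4galt1 (limma adjusted p = 9.2e-05) and by -5.01 ± 0.70 for B4galt5 (limma adjusted p = 0.00023). Over 6 other references these ran from -6.88 to -2.26 and from -6.85 to -2.23, all past the threshold. Under those references 13 to 42 of the 62 genes passed. With the DC1 labels exchanged the B4galt1 and B4galt5 differences were -2.42 (limma adjusted p = 0.0151) and -1.73 (0.0915). B4galt3 differed by -1.15 ± 0.73 (limma adjusted p = 0.249). That estimate stays the same when a splenic sample is left out, since the contrast holds no splenic DC1, and only its spread changes. B4galt3 passed at -2.99 with Actb as reference (limma adjusted p = 0.0057) and at -1.76 with H04 (0.0177), and stood at 1.63 with H03. Here 21 of 62 genes passed (33.9%), 14 of them lower (22.6%), so calls were common in this contrast.

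Genes of N-glycan branching were counted from a fixed list of 8 Mgat genes, 6 of them tested. None passed after TGF-beta. Mgat5 and Mgat4a, which start N-glycan branches, stood at 3.29 ± 0.49 and 3.20 ± 0.50, and Mgat4b and Mgat2 at -0.21 ± 0.68 and -0.07 ± 0.47. The list's median was 1.58, beside 0.29 over all genes. In DC1 as labelled 0 of 6 passed, with Mgat5 at -2.25 ± 0.70, Mgat4a at -2.09 ± 0.63, Mgat2 at -0.087 ± 0.73, Mgat1 at -0.20 ± 0.73 and a list median of -0.91, beside -0.39 over all genes.

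Among the B3gnt genes, which alternate with B4galt enzymes in building polylactosamine, 0 of 4 passed after TGF-beta. B3gnt3 stood at 3.88 ± 0.89, B3gnt8 at 8.73 ± 3.19, B3gnt4 at 5.35 ± 3.30 and B3gnt2 at -0.44 ± 0.49. In DC1 as labelled 1 of 3 passed, beside 5 of 62 genes (8.06%): B3gnt8 was lower at -3.88 ± 0.75, beside -2.78 ± 0.89 for B3gnt3 and -1.33 ± 0.61 for B3gnt2. Of the sialyltransferases that can cap galactose, 0 of 3 passed in either comparison. After TGF-beta St3gal1 stood at -0.03, St3gal2 at 0.31 and St6gal1 at -0.19, and in DC1 at -1.15, -0.07 and 0.79. Glb1, the lysosomal galactosidase that removes galactose, stood at 0.36 ± 0.67 after TGF-beta and -0.26 ± 0.66 in DC1. C1galt1, which adds galactose in the O-glycan core, stood at 1.88 ± 0.40 and -0.25 ± 0.73, and its chaperone C1galt1c1 at -0.05 and -0.39, with no call among the 3.

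The panel genes whose level followed each member most closely were named by Pearson correlation over the 8 samples among 54 candidates. This is a description, since the samples fall into 4 groups and share reference wells within each plate. For B4galt1 they were Mgat5 (r = 0.97, Spearman 0.95), Galnt6, which starts O-glycans (0.95 and 0.90), and Mgat4a (0.94 and 0.90), beside a median of 0.46 over the candidates. For B4galt5 the same genes led, Mgat4a at 0.94, Mgat5 at 0.93 and Galnt6 at 0.90. For B4galt3 they were Man1a2, a Golgi mannosidase (0.96), and the glucosidase II subunits Ganab (0.94) and Prkcsh (0.92). B4galt1 and B4galt5 correlated at 0.93, B4galt1 and B4galt3 at 0.45, and B4galt3 and B4galt5 at 0.24. With the panel mean as reference these became 0.90, 0.03 and -0.25.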

How the data were processed

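The authors deposited a Ct value per well for each of 12 plates of 96 wells, a matrix of Ct minus the Actb Ct, which is a log2 scale on which higher means less RNA, and a table of ratios (fold of the test over the control group, relative to beta-actin per the file headers). The 4 members and all lists and tests were chosen with earlier results of these data known. Wells were named by matching to the matrix within 0.002 cycles, and the files name only the first reference well (Actb); the others are called H02 to H05. In 2 files (splenic file 3 and tumor file 2) values were moved by 1 well, after which they met the third-file relation in 76 of 86 and 75 of 75 wells, against 0 before. That relation divides the mean Ct by 1.1 (unstimulated) or 1.08 (TGF-beta) or multiplies it by 1.021 (both DC1 groups). Genes that broke it, or repeated another well, were left out: 11 for TGF-beta and 16 for DC1, B4galt2 among the latter.

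Ct over 35 and blanks were set to 35, and a gene was tested with a Ct under 35 in at least 2 samples compared. The value tested was the mean Ct of 5 reference wells minus the gene's Ct, with limma 3.58.1 in R 4.3.3 (lmFit and eBayes, two-sided) and Benjamini-Hochberg adjustment over all genes tested. The first 2 comparisons were fitted on their own groups and the other 3 on all 8 samples. Ratios between members were tested by exact permutation (scipy 1.17.1, Python 3.11.15). Named genes were the 4 members, the 3 most correlated panel genes per member with Ct under 35 in all 8 samples, and fixed lists (Mgat, B3gnt, sialyltransferases, Glb1, C1galt1 and C1galt1c1); up to 4 genes of a list are named, by highest and lowest change. Motifs were searched in the 250 upstream bases only. Alternatives changed the reference, late Ct, filter, samples and variance model, and an exchange of the DC1 labels was added after seeing the data. The precision rests on 2 samples per group.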

Additional observations from a re-analysis of the deposited data

Results flagged for a closer look

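The difference between the tumor effect and the TGF-beta effect passed the test for B4galt1, at -5.90 on the log2 scale, and for B4galt5, at -6.62 (limma, 8 samples, adjusted p = 0.00063 for each). Of 62 genes, 11 passed this test (17.7%). For B4galt1 and B4galt5, both tumor samples were lower than both splenic ones as labelled, as in 26 of 62 genes (41.9%). Both TGF-beta samples were higher than both unstimulated ones, as in 20 of 69 genes (29%). The -5.90 and -6.62 depend on which DC1 plates are tumor. With those labels exchanged they were -0.65 and -0.057.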

How the results depend on the processing

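No paired analysis was possible because the labels give no replicate number that pairs samples across groups. With all deposited files, the third file of each group entered as a sample, although 310 of 336 wells follow from the other 2 files. It adds no separate measurement, so passes with all files overstate the precision. For TGF-beta against unstimulated, 5 genes passed with late Ct left out, 10 with all 8 samples in one fit, 13 with all deposited files, and 0 to 15 leaving out 1 sample (4 without the first and 15 without the second TGF-beta sample). There B4galt1 passed at 3.27 with late Ct left out, 3.27 in the one fit and 3.17 with all files, and ran from 3.15 to 3.40 leaving out 1 sample. B4galt5 passed at 3.34 in the one fit and 3.23 with all files, and ran from 2.32 to 4.35. B4galt3 turned to -0.069 with Actb, -0.23 with H03 and -0.75 with the panel mean. For tumor against splenic DC1, 11 genes passed with Actb, 1 with H02, 16 with H03, 38 with H04, 15 with H05, 20 with the panel mean, 0 with late Ct at 40 (limma, 11 with an unadjusted p under 0.05), 8 in the one fit, 22 with all files, and 3 to 16 leaving out 1 sample (12 and 16 without the first and second splenic sample, 3 without either tumor sample). B4galt1 passed there at -3.55 with Actb, -3.55 with H04, -2.49 with H05, -1.99 with the panel mean, -2.63 in the one fit and -2.64 with all files, and ran from -3.20 to -2.05. B4galt5 did not pass at -3.54 with H02, -1.31 with H03 or -3.28 with late Ct at 40, and ran from -3.29 to -3.27. B4galt3 turned to -0.50 with Actb and with H04, and ran from -0.70 without the second splenic sample to 1.55 without the first. For the difference of effects, 19 genes passed with H04, 19 with all files and 0 with DC1 labels exchanged (1 with an unadjusted p under 0.05), where B4galt1 was -0.65, B4galt5 -0.057 and B4galt3 -0.48. Leaving out 1 sample gave 9 to 13 genes, -6.48 to -5.32 for B4galt1 and -7.63 to -5.60 for B4galt5. B4galt3 was also -0.43 with Actb, -0.41 with H02, -0.51 with H04 and ran from -0.76 without the second splenic sample to 1.49 without the first. For splenic DC1 against unstimulated, 5 genes passed with Actb, 2 with H02, 14 with H04, 16 with H05, 14 with the panel mean and 3 to 10 leaving out 1 sample (3 without the first splenic or the second unstimulated one). B4galt1 turned to -0.19 with Actb, and to -1.77, and B4galt5 to -1.67, with labels exchanged. For tumor DC1 against TGF-beta, 42 genes passed with Actb, 13 with H02, 39 with H03, 38 with H04 and 15 to 25 leaving out 1 sample, B4galt3 turned to 1.63 with H03, and B4galt5 did not pass, at -1.73, with labels exchanged. The mean B4galt1 share in unstimulated cells was 51.4% at 1.9 per cycle, and the B4galt2 bound in tumor DC1 0.0213% with late Ct at 40. The cause of these shifts was not tested.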
